A study of Mus musculus with 6 samples.

Results

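Skeletal muscle sarcomere genes were followed through the RNA sequencing of mouse dorsal skin treated with rebamipide. The set held 43 genes of 21959 in the count table, taken by symbol from a list of components of the fast sarcomere and of components that fast and slow fibers share. Bulk poly(A) RNA was sequenced from shaved dorsal skin of 7-week-old C57BL/6 mice in telogen, the resting phase of the hair cycle. In the vehicle group (n = 3) the skin received 30% dipropylene glycol in distilled water every day for 7 days. In the rebamipide group (n = 3) it received 3% rebamipide, a drug used for gastric ulcers, on the same schedule. All animals were shaved, and no genetic change was named for either group.

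Striated muscle contracts when myosin heads of the thick filament pull on actin of the thin filament within the sarcomere, the repeating unit bounded by Z-discs. Calcium released from the sarcoplasmic reticulum binds troponin, which moves tropomyosin off the myosin sites, and calcium pumps then return the ion to its store. Mouse dorsal skin lies on the panniculus carnosus, a thin sheet of mostly fast striated muscle, so full-thickness skin can carry muscle RNA together with the epidermis, dermis and fat. In bulk samples, fewer cells of a type and less RNA per cell cannot be told apart.

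The libraries held 32709801 to 39915276 counts assigned to genes, so 3 counts corresponded to 0.0752 to 0.0917 CPM (counts scaled to library size). CPM below were scaled with the trimmed mean of M-values (TMM), whose factors were 1.21 to 1.279 in vehicle and 0.7464 to 0.9286 in rebamipide. Mitochondrially encoded genes took 2.59% to 5.364% of counts in vehicle and 13.28% to 21.96% in rebamipide. A list of 8 keratinocyte genes summed to 5303 to 9205 CPM in vehicle and to 2424, 1498 and 3.587 CPM in rebamipide 1, 2 and 3. In the library labelled rebamipide 3, the keratinocyte genes Krt14 and Dsp had 0 counts, so defining markers of the epidermis were absent from a library labelled skin. By edgeR's quasi-likelihood test at an adjusted p under 0.05, 0 of these 8 were called (1 at an unadjusted p under 0.05), as were 0 of 6 fibroblast genes (2 at an unadjusted p under 0.05). The fibroblast genes summed to 12000, 13730 and 17740 CPM in vehicle 1, 2 and 3. In rebamipide 1, 2 and 3 they summed to 15110, 3503 and 1850 CPM, falling in the same order as the keratinocyte list. Over all genes 14.1% were called higher and 6.51% lower, and 5901 of 14875 had an unadjusted p under 0.05. Of 8 brown adipocyte genes, 6 were higher in rebamipide, among them Ucp1, with 0 counts in every vehicle library. Elovl3 of the same list had a log2 fold change of -1.45 (edgeR adjusted p = 0.0575), with all rebamipide libraries below all vehicle libraries. What part these differences play in the muscle values was not tested, and the summed level, the median fold change and the correlations are given with and without rebamipide 3.

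Promoters of 4 of the most abundant members in their role groups show the letters that stand just before these genes. They are given as the 250 bases before the RefSeq start site (GRCm38.p6), 5′ to 3′ on the strand of the gene. Capitals mark matches to an E-box (CAGCTG, its own reverse complement, bound by myogenic factors such as MyoD), a TATA box (TATAAA), a MEF2 motif or a CArG box (bound by serum response factor), searched on both strands. Acta1 at chr8:123894776-123895025 (minus strand) encodes skeletal alpha-actin, Myh4 at chr11:67237562-67237811 (plus) a fast myosin heavy chain, Atp2a1 at chr7:126463074-126463323 (minus) the fast calcium pump SERCA1, and Des at chr1:75360042-75360291 (plus) the intermediate filament protein desmin.
Acta1: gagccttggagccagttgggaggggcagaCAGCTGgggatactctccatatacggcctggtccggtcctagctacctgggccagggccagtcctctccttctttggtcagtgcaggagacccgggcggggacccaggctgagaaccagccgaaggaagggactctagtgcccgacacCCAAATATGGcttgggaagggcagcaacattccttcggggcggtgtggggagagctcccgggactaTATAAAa
Myh4: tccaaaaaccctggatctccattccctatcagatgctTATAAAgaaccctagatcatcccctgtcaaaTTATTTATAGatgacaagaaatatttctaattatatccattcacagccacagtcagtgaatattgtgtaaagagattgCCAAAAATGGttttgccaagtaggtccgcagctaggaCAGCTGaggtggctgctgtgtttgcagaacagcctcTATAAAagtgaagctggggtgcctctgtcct
Atp2a1: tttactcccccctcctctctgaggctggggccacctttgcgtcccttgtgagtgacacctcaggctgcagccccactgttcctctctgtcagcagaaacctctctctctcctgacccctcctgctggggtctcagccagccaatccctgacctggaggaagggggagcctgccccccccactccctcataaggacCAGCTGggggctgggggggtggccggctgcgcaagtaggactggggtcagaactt
Des: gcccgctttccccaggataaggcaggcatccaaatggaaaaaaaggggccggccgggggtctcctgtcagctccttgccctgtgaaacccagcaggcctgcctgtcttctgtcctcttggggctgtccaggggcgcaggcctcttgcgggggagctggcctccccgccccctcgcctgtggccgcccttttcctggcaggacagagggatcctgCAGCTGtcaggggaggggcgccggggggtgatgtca
All 4 windows held an E-box, which began 221 bases before the start site in Acta1, 67 in Myh4, 55 in Atp2a1 and 36 in Des. Acta1 and Myh4 also held a CArG box, and Myh4 was the only 1 of the 4 with a MEF2 motif. The MEF2 motif of Myh4 overlapped a TATA box match on the other strand (TTTATA).

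RefSeq windows were matched for 29 of the 43 members, in 33 windows. An E-box stood in 42.4% of these windows and in 13% of all 32851 RefSeq promoter windows of the same length. The MEF2 motif was found in 15.2% of member windows and 2.92% of all windows, the CArG box in 15.2% and 1.47%, and the TATA box in 15.2% and 12.4%. These shares are descriptions of letters without a test, and a match is not shown to be a bound site.

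The sarcomere genes were abundant in most libraries of skin, and the groups differed by less than the libraries within either group. Together they took 1.273%, 5.066% and 5.831% of all counts in vehicle 1, 2 and 3. They took 5.681%, 1.004% and 0.06545% in rebamipide 1, 2 and 3. Rebamipide 1 stood with vehicle 2 and 3, rebamipide 2 with vehicle 1, and rebamipide 3 lay far below every other library, so the groups overlapped. The number of members among the 100 genes with the most counts was 5, 14 and 15 in vehicle and 15, 3 and 0 in rebamipide. The log2 of the summed CPM was 14.72 ± 1.25 (SD, n = 3) in vehicle and 13.13 ± 3.11 in rebamipide, a difference of -1.60. The 2-sided exact permutation test of this difference gave p = 0.7, where 0.1 is the smallest p that 3 against 3 libraries allow. Without rebamipide 3 the difference was 0.09.

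**Figure D1:**
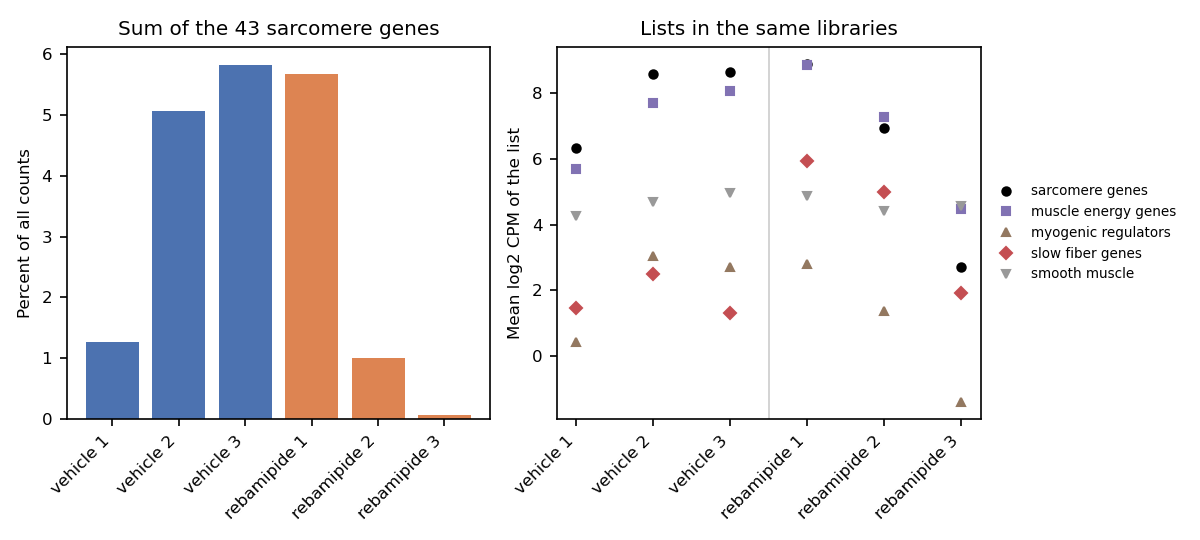
Left, percent of all counts taken by the 43 sarcomere genes in each library (bars from 0, 1 library each). Right, mean log2 CPM of the tested genes of 5 lists in the same libraries, with each point 1 list in 1 library. The sarcomere share ranges from 0.06545% in rebamipide 3 to 5.831% in vehicle 3. The mean of the smooth muscle list stays between 4.27 and 4.96 on the log2 CPM scale, though its members differ in direction.

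None of the 42 members that passed the low-count filter was called between treatments. By edgeR's quasi-likelihood test at an adjusted p under 0.05, 0 members were higher in rebamipide, against 14.1% of all 14875 genes tested, and 0 were lower, against 6.51%. With the thresholds of the study (unadjusted p under 0.05 together with a log2 fold change beyond 1 in either direction), 0 members were higher against 14.3% of genes and 0 were lower against 14.5%. No member had an unadjusted p under 0.05 in edgeR, DESeq2 or limma-voom. Among all genes, 5901 of 14875 did in edgeR and 5992 of 14875 in limma-voom. In DESeq2, run without the filter, 6847 genes did. That fit took all 21959 genes of the count table, of which 17835 had any count. Limma on log2(FPKM + 1), where FPKM is the fragment count scaled by gene length and library size, gave 1 member, Trdn, against 8303 of 14875 genes. The smallest p among the members in edgeR was 0.133, also for Trdn, with an adjusted p of 0.2397. The CPM of vehicle and rebamipide overlapped for all 42 tested members, whereas 24.5% of genes tested had all rebamipide libraries above all vehicle libraries and 24% had them all below.

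The fitted log2 fold changes, given as rebamipide minus vehicle, ran from -1.80 for Trdn to 0.39 for Myh2, with a median of -0.38 over the members and -0.18 over all genes. Of the members, 41 lay below 0 and 1 above, and none of these values passed the test. Their standard errors were 0.95 to 1.60 with a median of 1.37, compared with a median of 0.36 over all genes. The median of the members depended on single libraries. Without rebamipide 3 it was 0.18, with 27 members above 0. It was 0.01 without vehicle 3, -0.09 without rebamipide 2, -0.20 without vehicle 2, -0.80 without vehicle 1 and -2.21 without rebamipide 1. It was -1.70 with limma-voom and -1.83 with limma on log2(FPKM + 1). Scaling by total counts alone moved the median of all genes to -0.78 and that of the members to -0.85.

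**Figure D2:**
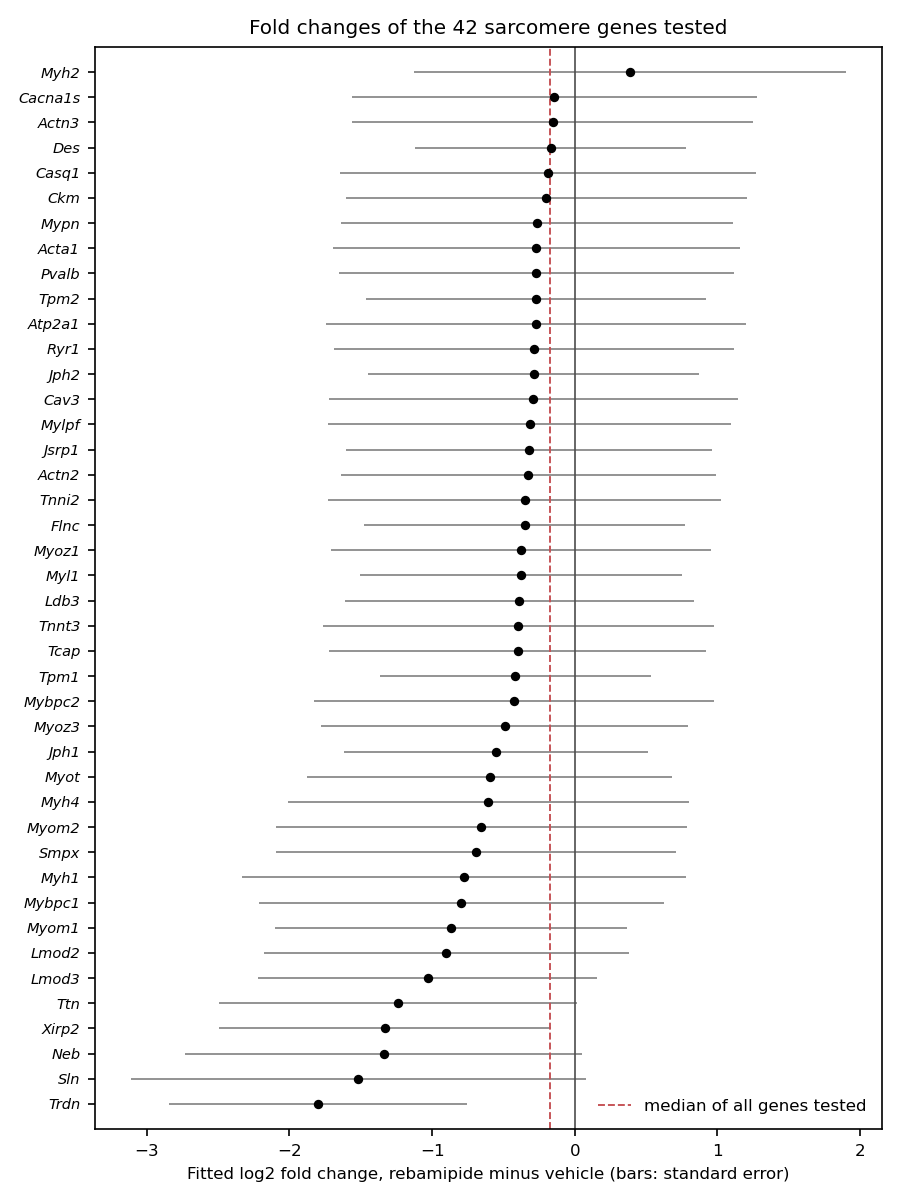
Fitted log2 fold change of each tested sarcomere gene, rebamipide minus vehicle (points, with bars of 1 standard error, n = 3 libraries a group), beside the median of all genes (dashed line, -0.18). Points run from -1.80 (Trdn) to 0.39 (Myh2), and no gene passed the test.

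Thin filament genes, which encode actin and the calcium switch on it, showed the pattern of the whole set. Acta1, on chromosome 8 (124618508 to 124621490, minus strand, GRCm39), had 1560, 7225 and 7094 CPM in vehicle 1, 2 and 3 and 10860, 2244 and 80.9 CPM in rebamipide 1, 2 and 3. The groups overlapped, with the highest and the lowest library both in rebamipide. Mean Acta1 levels were 5293 ± 3234 CPM (SD, n = 3) in vehicle and 4394 ± 5701 CPM in rebamipide. For Acta1 the fitted log2 fold change was -0.27 (SE 1.43, edgeR adjusted p = 0.8993). Tnnt3, the fast troponin T that ties troponin to tropomyosin, had 753, 2672 and 3673 CPM in vehicle and 4398, 956 and 41.9 CPM in rebamipide. Tpm2, beta-tropomyosin, had 446, 1844 and 1855 CPM in vehicle and 2729, 642 and 68.0 CPM in rebamipide. Both kept the order of libraries seen for the summed set within rebamipide, and vehicle 1 was again the lowest vehicle library. Tpm1, alpha-tropomyosin, which smooth muscle and many other cells also use, had 747, 1586 and 1789 CPM in vehicle and 2375, 567 and 146 CPM in rebamipide. Neb, encoding nebulin, the long protein that runs along the thin filament, had 104, 659 and 599 CPM in vehicle and 428, 106 and 4.54 CPM in rebamipide.

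Tnnc2, the fast troponin C that binds calcium, was the 1 member that could not be tested. It had 0, 1 and 1 counts in vehicle and 2, 0 and 0 counts in rebamipide, under the floor of 3 counts in every library. The partners of its protein were abundant in the same libraries, as Tnnt3 above and the fast troponin I gene Tnni2, which had 223 to 1120 CPM in vehicle and 13.1 to 1448 CPM in rebamipide. In the GENCODE vM21 annotation (GRCm38), 592 of the 800 exon bases of Tnnc2, or 74%, overlapped exons of Ube2c. Whether reads over this overlap were left uncounted was not tested, and the counts of Tnnc2 give no measure of its transcript.

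Thick filament genes, the myosin chains and their binding proteins, gave no call either. Myh4, the heavy chain of the fastest glycolytic fibers, had 1380, 5607 and 7619 CPM in vehicle and 7841, 1692 and 70.5 CPM in rebamipide. The means were 4869 ± 3184 CPM (SD, n = 3) and 3201 ± 4099 CPM, and the groups overlapped. The fitted log2 fold change of Myh4 was -0.60 (SE 1.40, edgeR adjusted p = 0.769), and it stayed below 0 when any 1 library was left out (-2.46 to -0.02). Mylpf, the fast regulatory light chain, had 492, 1717 and 2269 CPM in vehicle and 3032, 541 and 23.0 CPM in rebamipide. Myl1, the fast essential light chain, had 476, 1674 and 1939 CPM in vehicle and 2549, 505 and 94.7 CPM in rebamipide. Rebamipide 3 was the lowest library for both light chains, but Mylpf stood there at a smaller share of its rebamipide 1 level than Myl1 did. In that library Myl1 came to 117% of Acta1 CPM, compared with 22.5% to 30.5% in the other 5, whereas Mylpf stayed at 23.76% to 31.99% of Acta1 in all 6. Of 50-base windows in the Myl1 transcript, 23.43% were shared with the pseudogene Mylf-ps, so its counts are uncertain.

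The fast heavy chains were compared with each other per length, so that transcript size does not enter the shares. Of the summed level of 6 myosin heavy chain genes (Myh1, Myh2, Myh3, Myh4, Myh7 and Myh8), Myh4 made up 85.28%, 71.85% and 85.2% in vehicle and 81.23%, 71.63% and 89.73% in rebamipide. Myh1, the chain of fibers between the fastest and the oxidative fast type, made up 13.37%, 25.04% and 13.97% in vehicle and 15.3%, 21.8% and 6.996% in rebamipide. Myh2, the chain of oxidative fast fibers, made up 1.253%, 2.868% and 0.7764% in vehicle and 2.906%, 5.444% and 1.926% in rebamipide. Myh4 thus led in every library, and the shares of all 3 overlapped between treatments. The length-normalized ratio of Myh4 to Myh1 was 6.38, 2.87 and 6.10 in vehicle and 5.31, 3.29 and 12.8 in rebamipide. The log2 ratio differed by 0.33 (2-sided exact permutation test, p = 0.8, adjusted p = 1 over 9 ratios). The log2 ratio of Myh2 to Myh4 was -5.84 ± 1.09 (SD, n = 3) in vehicle and -4.68 ± 0.91 in rebamipide (exact permutation p = 0.3, adjusted p = 1). These 3 genes share sequence, since 26.9% of 50-base windows of Myh2, 26.72% of Myh1 and 18.9% of Myh4 also occurred in another gene, and their split is uncertain to that extent.

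**Figure D3:**
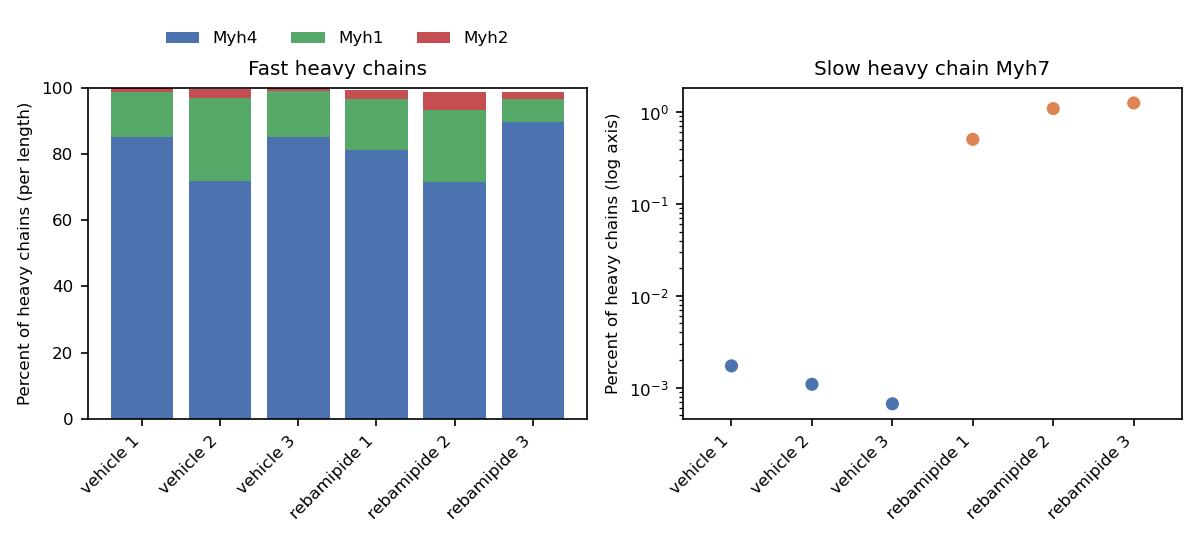
Left, percent of the summed length-normalized level of 6 myosin heavy chain genes taken by Myh4, Myh1 and Myh2 in each library (stacked bars). Right, the percent taken by the slow chain Myh7 (points, log axis, 1 library each). Myh4 makes up 71.63% to 89.73%, and Myh7 lies at 0.001729% or less in vehicle and at 0.505% or more in rebamipide.

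Z-disc genes anchor thin filaments at the borders of the sarcomere. Actn3, the alpha-actinin of fast fibers, had 270, 688 and 1361 CPM in vehicle and 1772, 294 and 14.8 CPM in rebamipide. Its means were 773 ± 550 CPM (SD, n = 3) and 694 ± 944 CPM, and the fit gave a log2 fold change of -0.16 (SE 1.41, edgeR adjusted p = 0.9414). Ldb3, a Z-disc scaffold, had 76.0, 397 and 420 CPM in vehicle and 544, 125 and 13.3 CPM in rebamipide. Tcap, which caps titin at the Z-disc, had 73.6, 437 and 294 CPM in vehicle and 453, 151 and 5.19 CPM in rebamipide. All 3 genes overlapped between treatments, but they differed in which of the upper vehicle libraries was higher. Actn3 was 198% as high in vehicle 3 as in vehicle 2, and Tcap was 67.4% as high. Actn2, the alpha-actinin of all striated muscle, followed Tcap, at 68.6%, so that the length-normalized ratio of Actn2 to Actn3 was 0.144, 0.418 and 0.145 in vehicle and 0.178, 0.336 and 0.304 in rebamipide. The ratios of the groups overlapped (exact permutation p = 0.8, adjusted p = 1 over 9 ratios).

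At the M-band, where thick filaments are cross-linked, and for the creatine kinase that buffers ATP there, no gene was called. Ckm, muscle creatine kinase, had 411, 1500 and 1961 CPM in vehicle and 2824, 527 and 22.0 CPM in rebamipide, means of 1291 ± 796 CPM (SD, n = 3) and 1124 ± 1493 CPM. Ckm had a fitted log2 fold change of -0.20 (SE 1.41, edgeR adjusted p = 0.9261). Myom1, myomesin of the M-band, had 79.2, 505 and 476 CPM in vehicle and 450, 119 and 11.3 CPM in rebamipide. Myom2, the partner typical of fast fibers, had 70.0, 408 and 424 CPM in vehicle and 458, 112 and 3.05 CPM in rebamipide. The length-normalized ratio of Myom1 to Myom2 was 0.832 to 1.05 in 5 libraries and 3.11 in rebamipide 3.

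Titin and desmin tie the sarcomere together and to its neighbors. Ttn, the spring from Z-disc to M-band, had 175, 850 and 755 CPM in vehicle and 531, 215 and 8.97 CPM in rebamipide. Des had 162, 827 and 782 CPM in vehicle and 1115, 358 and 101 CPM in rebamipide, means of 590 ± 372 CPM (SD, n = 3) and 525 ± 527 CPM. Des had a fitted log2 fold change of -0.17 (SE 0.95, edgeR adjusted p = 0.9046). Smpx, a small protein of the muscle cytoskeleton, had 27.6, 169 and 150 CPM in vehicle and 174, 39.2 and 1.45 CPM in rebamipide. Des kept a larger part of its level in rebamipide 3 than Ttn or Smpx did. Against actin, Ttn was 4.89% of Acta1 CPM in rebamipide 1 and 9.56% to 11.8% in the other 5 libraries, a comparison chosen after its values were seen. Neb was 3.94% of Acta1 CPM in rebamipide 1, 4.74% and 5.61% in rebamipide 2 and 3, and 6.67% to 9.13% in vehicle. Ryr1, also a long transcript, was 8.48% of Acta1 CPM in rebamipide 1, within the 7.79% to 9.76% of the other 5 libraries. Xirp2 was 0.426% of Acta1 CPM in rebamipide 1 and 0.775% to 1.46% in the others, and Trdn was 0.0883% and 0.184% to 0.707%. Gene length and log2 fold change had a Spearman correlation of -0.248 over the 42 tested members and -0.061 over all genes. What part length plays in these values was not tested.

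Calcium handling genes release, buffer and return the calcium that starts contraction. Atp2a1 had 942, 4121 and 5876 CPM in vehicle and 7563, 1453 and 47.0 CPM in rebamipide, means of 3646 ± 2501 CPM (SD, n = 3) and 3021 ± 3996 CPM. Atp2a1 had a fitted log2 fold change of -0.27 (SE 1.48, edgeR adjusted p = 0.9016). Pvalb, parvalbumin, the soluble calcium buffer of fast fibers, had 334, 876 and 1578 CPM in vehicle and 1937, 360 and 17.1 CPM in rebamipide. Ryr1, the release channel of the sarcoplasmic reticulum, had 125, 563 and 693 CPM in vehicle and 921, 206 and 7.33 CPM in rebamipide. These 3 genes shared 1 order of libraries, with rebamipide 1 highest, then vehicle 3, vehicle 2, rebamipide 2, vehicle 1 and rebamipide 3. Sln, sarcolipin, a small inhibitor of the calcium pump, did not share it. It had 1.56, 39.9 and 3.98 CPM in vehicle and 12.0, 3.74 and 0.153 CPM in rebamipide, the last from 4 counts, and it was highest in vehicle 2. The ratio of Sln to Atp2a1 overlapped between groups (exact permutation p = 1, adjusted p = 1 over 9 ratios). Cacna1s, the voltage sensor that opens Ryr1, and Casq1, the calcium-binding protein of the store, had adjusted p-values of 0.9463 and 0.9333 in edgeR.

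**Figure D4:**
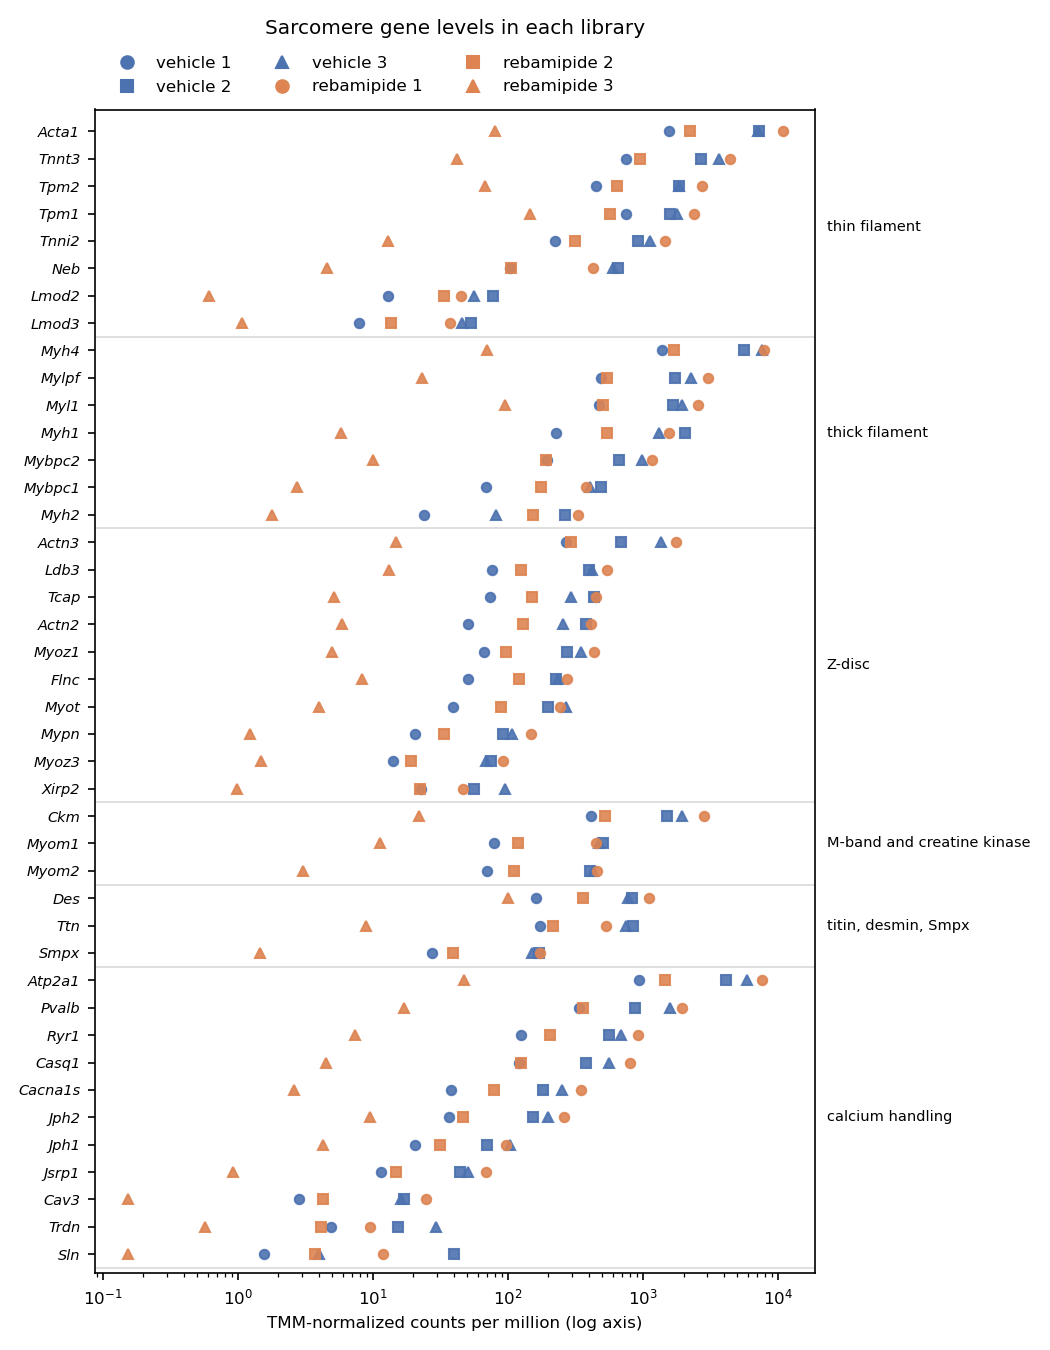
TMM-normalized CPM (log axis) of the 42 tested sarcomere genes, grouped by role, in vehicle 1 to 3 (blue) and rebamipide 1 to 3 (orange), with 1 point per library. Rebamipide 3 is the lowest library for all 42 genes, and rebamipide 1 is the highest for 30.

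Within each group the members moved together. Vehicle 1 was the lowest vehicle library for all 42 tested members, and vehicle 3 was the highest for 26 and vehicle 2 for 16. In rebamipide, all 42 were highest in rebamipide 1 and lowest in rebamipide 3. The range of log2 CPM within vehicle had a median of 2.42 over the members and 0.72 over all genes, and within rebamipide it was 6.49 and 0.75 (2.12 and 0.55 without rebamipide 3). Only 2.366% of all genes had a range within rebamipide above the median of the members, and 6.252% did so within vehicle. The Pearson correlation of log2 CPM over the 6 libraries had a median of 0.984 over the 861 pairs of members, the lowest being 0.800. These are descriptions over 6 points that share 1 library of very low muscle RNA, rebamipide 3. Each member followed the mean of the other members with r from 0.901 (Sln) upward, with a median of 0.992. Without rebamipide 3, over 5 libraries, the pairwise median was 0.952 and the lowest 0.244, and r with the other members had a median of 0.980 and was lowest for Sln, 0.715.

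The gap between rebamipide 1 and rebamipide 3 differed in size between members. In rebamipide 3 the members stood at a median of 1.10% of their CPM in rebamipide 1, from 0.372% for Myh1 to 9.07% for Des. After Des, the members with the largest remaining share were Tpm1 with 6.16%, Trdn with 5.97%, Jph1 with 4.38%, Myl1 with 3.71%, Jph2 with 3.61% and Flnc with 3.04%. Des and Tpm1 are also used by smooth muscle, Flnc is the filamin of striated muscle, and the junctophilins Jph1 and Jph2 tie the surface membrane to the calcium store. A list of 8 smooth muscle genes had a mean log2 CPM of 4.56 in rebamipide 3 and 4.27 to 4.96 in the other libraries, with 0 of 8 called in either direction by edgeR (14.1% of all genes were higher and 6.51% lower) and 1 at an unadjusted p under 0.05 (5901 of 14875 genes). Acta2, smooth muscle actin, led this list, but the mean does not describe each member. Synm, the second most abundant, had 62.6, 247 and 286 CPM in vehicle and 189, 92.5 and 45.4 CPM in rebamipide. Synm and Lmod1 thus kept the order of the summed sarcomere set within each group. Cnn1 was higher in every rebamipide library (8.46 to 13.3 CPM) than in any vehicle library (4.33 to 7.61 CPM). The part of smooth muscle in the remaining Des and Tpm1 counts was not tested. Leaving out Tpm1, Tpm2, Des and Flnc changed the difference in summed log2 CPM from -1.60 to -1.76. Rebamipide 2 stood at a median of 23.0% of rebamipide 1, and vehicle 1 at a median of 22.2% of vehicle 2. The lowest of the latter was Sln with 3.92%, followed by Myh2 with 9.06% and Myh1 with 11.1%, and the highest was Tpm1 with 47.1%.

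**Figure D5:**
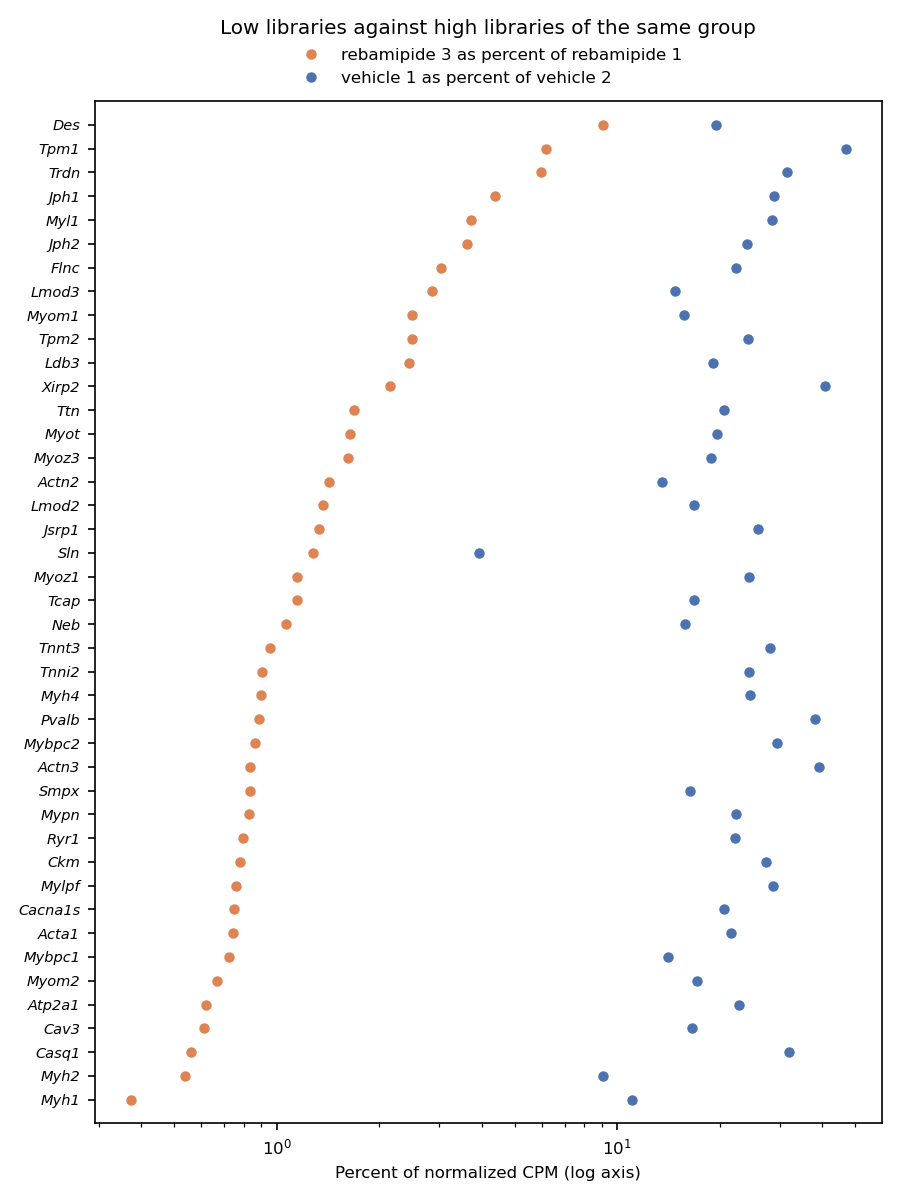
Normalized CPM of each tested sarcomere gene in rebamipide 3 as a percent of rebamipide 1 (orange) and in vehicle 1 as a percent of vehicle 2 (blue), on a log axis. The orange points run from 0.372% (Myh1) to 9.07% (Des), and the blue points from 3.92% (Sln) to 47.1% (Tpm1).

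Compared per length, with the deposited FPKM, Acta1 was the highest member in all 6 libraries, with 1297, 5804 and 5585 FPKM in vehicle and 6563, 1090 and 39.8 FPKM in rebamipide. Tnnt3 came second in all vehicle libraries (608, 2082 and 2806 FPKM) and in rebamipide 2 (451 FPKM), and Mylpf came second in rebamipide 1 (2650 FPKM, against 2579 FPKM for Tnnt3). In rebamipide 3 the order differed, with Myl1 at 34.5 FPKM and Des at 20.3 FPKM just after Acta1. Tnnt3 and Mylpf lay close together in most libraries, and their order was not tested.

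Genes whose level followed the sarcomere set closely included other muscle genes. Among 13336 genes outside the set with a mean of at least 50 counts, the 10 highest correlations with the mean log2 CPM of the members included Hrc (r = 0.9993), Myo18b, Apobec2, Mylk2, Asb16, Tmod4, Eef1a2 and Cdh15 (r = 0.9983), over 6 libraries. Mylk2 is the skeletal myosin light chain kinase, and Tmod4 caps the thin filament. Of these candidates, 85 had r above 0.99 and 740 had r above 0.9. Without rebamipide 3 these counts were 58 and 575, and the 8 named genes had r of 0.991 to 0.998.

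Other muscle lists were set beside the sarcomere genes, against 14.1% of all genes called higher, 6.51% called lower and 5901 of 14875 at an unadjusted p under 0.05. Of 8 myogenic regulators, 0 were called in either direction by edgeR (1 at an unadjusted p under 0.05). That gene was Mef2c, a partner of the myogenic factors, with 30.2, 104 and 111 CPM in vehicle and 35.6, 33.2 and 16.8 CPM in rebamipide. Of 7 neuromuscular junction genes, 0 were called (0 at an unadjusted p under 0.05), among them the acetylcholine receptor gene Chrna1, with 1.26, 8.87 and 4.30 CPM in vehicle and 7.34, 1.48 and 0.229 CPM in rebamipide. Of 3 tested developmental isoforms, 0 were called (0 at an unadjusted p under 0.05), and Myh8, the perinatal heavy chain, was highest in vehicle 2 with 25.0 CPM, against 2.44 and 6.97 CPM in the other vehicle libraries and 8.86, 1.21 and 0 CPM in rebamipide. Of 10 muscle glycolysis and oxygen genes, 2 were higher and 0 lower, a share near the 14.1% higher among all genes. The most abundant, Pygm (glycogen phosphorylase) and Eno3 (muscle enolase), overlapped between groups like the sarcomere genes, with edgeR adjusted p-values of 0.9296 and 0.8907. The called ones were Cox8b and Gys1, a cytochrome oxidase subunit and glycogen synthase, neither specific to muscle fibers. Cox8b lost its call without vehicle 2 or rebamipide 2 (edgeR adjusted p up to 0.0823), and Gys1 lost it in 9 of 14 alternatives (adjusted p up to 0.146).

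Slow fiber genes gave calls where the fast and shared ones gave none. Of 10 in the list, 4 were higher in rebamipide, against 14.1% of all genes, and 0 lower, against 6.51%, by edgeR at an adjusted p under 0.05. Myh7, the slow heavy chain, had 2, 6 and 4 counts in vehicle and 2120, 947 and 37 counts in rebamipide, that is 0.0401, 0.122 and 0.0855 CPM against 69.8, 36.9 and 1.41 CPM. Its groups did not overlap, and its fitted log2 fold change was 8.72 (SE 1.60, edgeR adjusted p = 0.0181). The slow light chains Myl2 and Myl3 and the slow troponin C gene Tnnc1 had log2 fold changes of 6.78, 6.29 and 5.26, with edgeR adjusted p-values of 0.0307, 0.0209 and 0.0402. In rebamipide 3, with the fewest fast muscle counts, Myl3 was at 1.83 CPM, above the 0.366 CPM of the highest vehicle library. The gap was smaller for Myl2, at 1.145 CPM against 0.528 CPM. For Tnnc1 it was 1.03 CPM against 0.711 CPM, from 27 and 35 counts. The fold changes stayed large with any 1 library left out, at 7.82 to 9.30 for Myh7, 5.66 to 7.56 for Myl2, 5.34 to 6.86 for Myl3 and 3.91 to 5.99 for Tnnc1. The calls did not all hold, since each was lost without vehicle 1, vehicle 2, vehicle 3 or rebamipide 2 (Tnnc1 also without rebamipide 1), where the edgeR adjusted p-values were 0.0515 to 0.12. Over all genes, too, at most 1 gene was called higher without vehicle 2 or without rebamipide 2. All 4 calls held with DESeq2 (adjusted p = 1.92e-12 for Myh7 and 1.09e-05 for Tnnc1), with the other scalings and with no filter. They were lost with limma-voom, where Myh7 had a log2 fold change of 7.55 (adjusted p = 0.155), and with limma on log2(FPKM + 1), where it had 1.76 (adjusted p = 0.0825). All 4 were also lost in edgeR with the replicate number as a block, where Myh7 had 7.82 (adjusted p = 0.0526). Of the other slow genes, Tnnt1, Tnni1, Casq2 and Myoz2 overlapped between groups, with log2 fold changes of 3.01, 2.04, -0.03 and 0.28 and adjusted p-values of 0.1483, 0.3353, 0.965 and 0.8824 in edgeR. In rebamipide 3, Myoz2 (0.840 CPM), Tnni1 (0.267 CPM), Casq2 (7.14 CPM) and Tpm3 (132 CPM) were below every vehicle library. Tnnt1 (1.34 CPM) lay between the vehicle libraries there, and the 4 called genes and Atp2a2 (457 CPM) lay above them. The most abundant genes of the list, Atp2a2 and Tpm3, which non-muscle cells also express, had edgeR adjusted p-values of 0.1341 and 0.4064.

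The length-normalized ratio of Myh7 to the summed fast heavy chains was 2.16e-05, 1.18e-05 and 7.52e-06 in vehicle and 0.00508, 0.0110 and 0.0129 in rebamipide. The slow chain was thus a larger part of the heavy chains in every rebamipide library than in any vehicle library, including rebamipide 2, whose fast genes were near the level of vehicle 1. The log2 ratio differed by 9.50 (2-sided exact permutation test, p = 0.1, the smallest this design allows, adjusted p = 0.9 over 9 ratios). It was 9.13 to 9.91 with any 1 library left out. Its size depended on the count added to each gene, since Myh7 had 2 to 6 counts in vehicle, and it was 8.47 with 5 counts added in place of 0.5. The other 8 ratios overlapped between groups, with exact permutation p-values of 0.3 to 1.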

How the data were processed

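Poly(A) RNA libraries of mouse dorsal skin (3 vehicle, 3 rebamipide, 1 per animal) were analysed. Per the labels, the authors processed reads with fastp 0.22.0, HISAT2 2.1.0 and HTSeq 0.9.1 on GRCm39, and deposited counts per gene and FPKM per gene. Counting mode and strand are not given in the sources used here. The FPKM equal counts divided by length and total. Counts were tested with edgeR 4.0.16 (TMM, default low-count filter, quasi-likelihood, Benjamini-Hochberg over 14875 genes). DESeq2 1.42.0, limma-voom and limma 3.58.1 on log2(FPKM + 1) were alternatives, as were other scalings, filters and each library left out. R 4.3.3 was used, and the code was tested on simulated data. Ratios are length-normalized, with 0.5 counts added, and single values used exact permutation tests. Intervals between animals come from 3 libraries a group. The members, their role groups and the other lists were chosen with earlier results of these data known. Named were the 3 members of each role group with the highest mean CPM, any called, the members of the ratios, and of other lists the 2 most abundant. Called slow genes were named in addition. Some genes that these rules name are not reported here.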

Additional observations from a re-analysis of the deposited data

How the results depend on the processing

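The count of members called at an adjusted p under 0.05 was 0 in each direction under every alternative run, and only limma on log2(FPKM + 1) gave 1 member (Trdn) by the thresholds of the study. Over all genes, 2093 were higher and 968 lower in edgeR. The count lower was 2535 with DESeq2, 1512 with at least 10 counts in every sample and 4809 with log2(FPKM + 1), and scaling by total counts alone gave 1258 higher and 3752 lower. With 1 library left out, 0 to 2810 genes were higher and 0 to 1971 lower (0 and 0 without vehicle 2, 1 and 0 without rebamipide 2). The median of the members ranged from -2.21 to 0.18 with 1 library left out and was -1.83 with log2(FPKM + 1), and the summed log2 difference ranged from -2.984 to 0.087. Log2 fold changes with 1 library left out were -2.18 to 0.32 for Acta1, -2.32 to 0.58 for Actn3, -2.23 to 0.38 for Ckm, -1.36 to 0.33 for Des and -2.28 to 0.31 for Atp2a1, each changing sign. Sign changes also occurred in the log2 ratio differences of Myh4 to Myh1 (-0.21 to 0.78), Tpm1 to Tpm2 (-0.35 to 0.38), Mybpc1 to Mybpc2 (-0.68 to 0.19), Myom1 to Myom2 (-0.19 to 0.77), Myoz1 to Myoz3 (-0.20 to 0.13) and Sln to Atp2a1 (-0.71 to 1.21). The cause of these shifts was not tested, beyond the loss of a library.

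The groups share replicate numbers. Deviations from the group means had correlations of -0.0164, -0.0382 and 0.00316 between same-numbered libraries. Between libraries of different number they were -0.323 to 0.379. With 3 libraries a group, these values cannot show whether the numbers pair the animals, and the main test did not pair them. With the replicate block, 0 members were called, their median was -1.59 and 1432 genes were higher and 855 lower. The block gave log2 fold changes of 7.82, 5.78, 5.63 and 4.31 for Myh7, Myl2, Myl3 and Tnnc1. Their edgeR adjusted p-values were 0.0526 to 0.108, so all 4 calls were lost. These alternatives were chosen after seeing the data. The summed log2 difference is -1.60 with or without the block by construction. Depth limits Tnnc2, under 3 counts throughout, and Sln and Cav3 in rebamipide 3, with 4 counts each.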
